A study of Homo sapiens with 6 samples.

Results

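The genes described here are 53 genes of ribosome biogenesis and classical c-Myc targets, taken by name from the 58302 Ensembl genes that were counted, and all 53 had enough reads to be tested. RNA-seq was performed on 3 repeats of MDA-MB-231 cells, a human breast cancer line of the mesenchymal/basal-like type, stably expressing a control shRNA, and on 3 repeats stably expressing Smyca shRNA #1, which targets the lncRNA Smyca. The hairpin was delivered in the pLKO.1 vector. No other treatment, dose or time is given for the libraries, and a single Smyca shRNA was sequenced, so that an effect of Smyca and any other effect of this hairpin cannot be told apart. The deposited read counts were between 14999307 and 16501085 per library. Levels are given as CPM, that is, counts per unit of library size after scaling the libraries with the TMM method. Ratios are given as log2 of control over Smyca knockdown, so that a negative value marks a gene with a higher level in the knockdown.

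Ribosomes are built in the nucleolus. RNA polymerase I (Pol I) transcribes the precursor rRNA, small nucleolar RNPs (snoRNPs) modify it, and assembly factors fold, cut and package it with ribosomal proteins into the small and the large subunit. c-Myc is well known for driving many of these genes, and it binds DNA with its partner Max, preferably at the E-box CACGTG. The study asked whether Smyca acts on c-Myc signaling. From its RNA-seq, the paper reports that genes regulated by Smyca matched c-Myc target sets. By qRT-PCR, it reports a set of c-Myc targets as lower in Smyca knockdown cells. The comparison of control with Smyca knockdown bears on this question through genes that are known to follow c-Myc.

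The label and the knockdown were examined first. Smyca, counted as MIR23AHG, was at 19.5 to 25 CPM in the control and at 5.61 to 10.5 CPM in the knockdown. VIM, which encodes the mesenchymal filament vimentin, was at 71.2 to 305 CPM, and the epithelial genes EPCAM and KRT18 were at 236 to 336 CPM and 987 to 1380 CPM. The estrogen receptor gene ESR1 had at most 0.192 CPM, PGR and the leukocyte gene PTPRC were at 0 in each library, and ERBB2 was at 46.7 to 72.2 CPM. HNF4A and VIL1, which are known from gut and liver epithelium and were picked after their values had been seen, were at 65.4 to 194 CPM and 220 to 501 CPM. ESR1 and PGR were thus at or near 0, but EPCAM, which a mesenchymal line should have at a low level, was above VIM in 5 of the 6 libraries. The epithelial gene CDH1 was at 71.5 to 300 CPM, while CD44 and EGFR were at only 9.31 to 37.2 CPM and 11 to 30.7 CPM. With EPCAM, HNF4A and VIL1, these levels bear on the label of the line, whose identity was not tested. VIM was higher in each control repeat than in each knockdown repeat (log2 ratio 1.09, standard error 0.30) and VIL1 was lower (log2 ratio -0.62, standard error 0.19), so that these marker genes moved with the groups as well. CD44, EGFR and the epithelial gene CDH1 had higher means in control, with overlapping repeats (log2 ratios 0.94, 0.77 and 0.72), and EPCAM and KRT18 differed little (0.03 and -0.05) and changed sign with single libraries left out. CDH1 was at 0.21 without control repeat 1, at 1.10 without control repeat 3 and at 1.12 without knockdown repeat 3, and CD44 was at 1.5 without knockdown repeat 3. HNF4A and the proliferation gene MKI67 had lower means in control, like most of the 53 genes, with overlapping repeats (both at a log2 ratio of -0.45). HNF4A was at -0.11 without control repeat 3 and at -0.71 without control repeat 2, and MKI67 at -0.21 without knockdown repeat 3. Their part in the results was not tested, and in bulk samples fewer cells of a type and less RNA per cell cannot be told apart. Control repeat 3 stood apart from the other libraries, with 4.99% of its reads from mitochondrially encoded genes against 1.78% to 2.72% elsewhere. Values without it are given for many of the results that it moves, in part only in the closing sections.

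Most of the 53 genes were higher in Smyca knockdown than in control. For a set of c-Myc targets, the paper reports the other direction by qRT-PCR, and the reason was not tested. The fitted log2 ratio was below 0 for 49 of the 53 genes (92.5%), while 46.6% of the 15075 genes tested were below 0. The median ratio was -0.37, with 14 genes at a ratio of 0.66 or less (26.4% against 5.54% of all genes) and 0 at 1.5 or more (against 15.6% of all genes), and the median over all genes tested was 0.04. No gene passed the criteria of the study for a differentially expressed gene (DEG), which ask for an adjusted p under 0.05 together with a ratio that reaches 1.5 or falls to 0.66. The lowest adjusted p was 0.111 (edgeR's quasi-likelihood test, adjusted after Benjamini and Hochberg). With these criteria, 0.0265% of all genes were DEGs higher in the control and 0% were DEGs lower in the control, while DESeq2's Wald test called 9 of the 53 and, in either direction, 5.55% of all genes. The paper, which used DESeq, reports more DEGs from its comparison of these cells. An unadjusted p under 0.05 was reached by 21 of the 53 with a lower level in control (39.6%), where 8.74% of all genes reached it in that direction. In the other direction it was reached by 0 of the 53, against 10.4% of all genes. The same direction was seen without a model, since in 23 genes (43.4%) each control repeat was below each knockdown repeat, against 12.5% of all genes, and in 0 genes was each control repeat above, against 12.4%.

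The libraries did not contribute equally. Summed over the 53 genes, the level was 7831, 8876 and 10544 CPM in the control repeats and 10957, 13380 and 12683 CPM in the knockdown repeats. Control repeat 1 had the lowest value of the 6 libraries in 38 genes, and knockdown repeat 2 the highest in 30. Control repeat 3 lay within the range of the knockdown repeats in 19 genes and above it in 8, against 12 and 0 for control repeat 2. Without control repeat 3, 17 of the 53 genes were DEGs (10.5% of all genes in either direction) and 35 had an unadjusted p under 0.05 and a lower level in control (13.9% of all genes). The latter count fell to 13 without control repeat 1 (5.02% of all genes) and to 13 without knockdown repeat 2 (4.75% of all genes). Without control repeat 2, 14 genes reached it (5.76% of all genes), and without knockdown repeat 3, 15 did (8.39% of all genes). With each library left out in turn, the ratio moved by over 1.5 times in 0 of the 23 genes whose groups did not overlap and in 26 of the 30 others. This contrast shows little, since the 23 were picked by the same libraries and ratios near 0 move more by this measure. Across the 6 libraries, which share depth and scaling, the median correlation between pairs of the 53 genes was 0.742 over 1378 pairs, and 92.5% of the pairs were above 0. The difference between the groups enters these correlations, and no value over all genes was computed to set beside them.

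**Figure D1:**
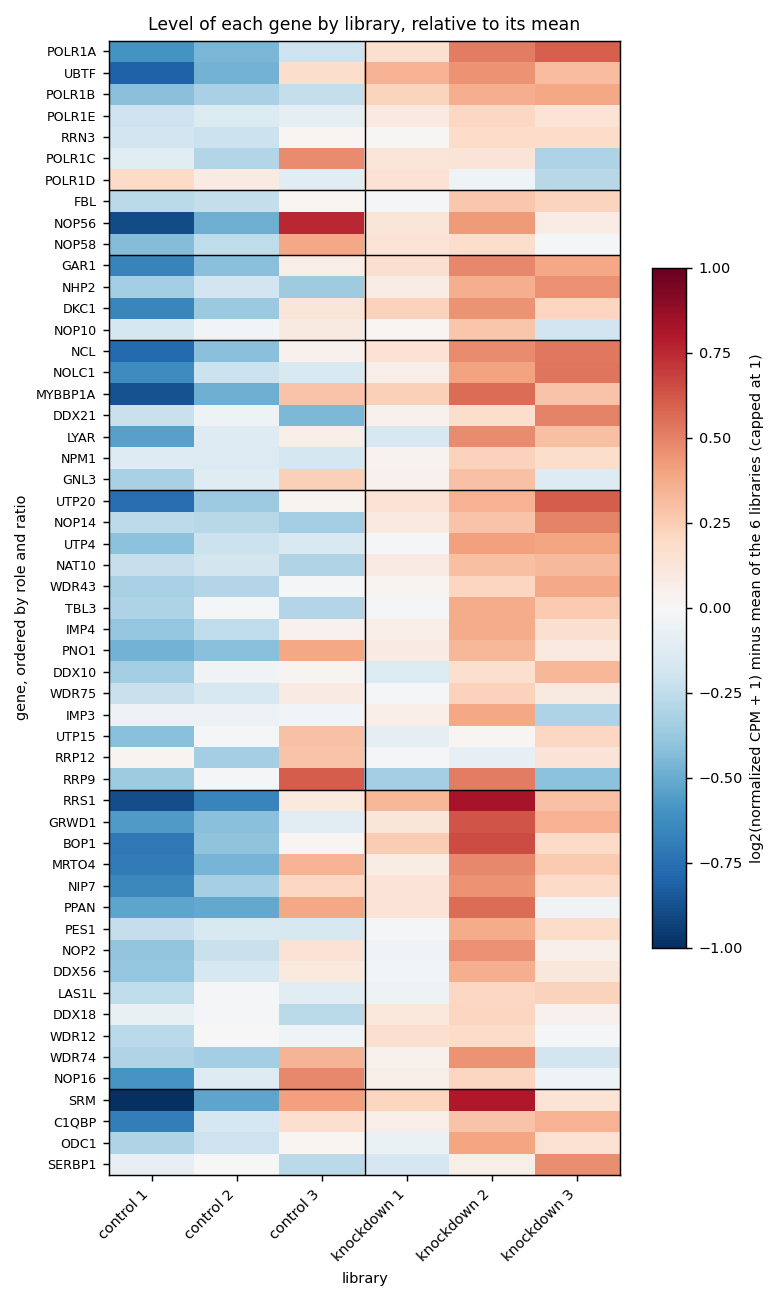
The color gives log2(CPM + 1) of each of the 53 genes (rows, grouped by role) in each library (columns) minus the mean of the 6 libraries, from blue (low) to red (high) and capped at 1 in either direction. Control repeat 1 is the bluest column, with the lowest value in 38 genes, and control repeat 3 resembles the knockdown repeats in many rows and exceeds all 3 of them in 8.

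The E-box was then counted in the promoters of the 53 genes. RefSeq promoter windows (GRCh38.p14) of 300 bases, from 250 bases before to 50 bases after a transcription start, were given for 46 of the 53 genes, leaving out NOP58, NOLC1, BOP1, RRP12, RRS1, POLR1E and DDX18. CACGTG, which reads the same on both strands, was found in at least 1 window of 20 of the 46 genes (43.5%), against 12.5% of 10964 genes tested that had a window and 8.77% of all genes in the table. Counted by window, 33.9% of 59 windows held it, against 7.26% of 35116. Of 119 genes from the other lists described below, 29.4% held it. The list consists of genes known as c-Myc targets, for which this motif is known, and a match is not evidence of binding here.

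The E-box nearest before the start is printed for 5 genes whose groups did not overlap, for the polyamine genes SRM and ODC1, and for NOP10 and RRP9, whose ratios were near or above 0. Each is written 5′ to 3′ on the strand of the gene, with the E-box in capitals and 12 bases on each side.
UTP20, chr12:101280083-101280112, plus strand: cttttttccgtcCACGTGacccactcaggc
UTP4, chr16:69132621-69132650, plus strand: agagcgcgcgcgCACGTGgggccggggcgg
NAT10, chr11:34105602-34105631, plus strand: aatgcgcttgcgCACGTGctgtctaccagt
DDX21, chr10:68956604-68956633, plus strand: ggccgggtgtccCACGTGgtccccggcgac
IMP4, chr2:130342682-130342711, plus strand: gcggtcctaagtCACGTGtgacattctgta
SRM, chr1:11060200-11060229, minus strand: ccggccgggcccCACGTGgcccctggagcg
ODC1, chr2:10448024-10448053, minus strand: ccgggccccgggCACGTGtgcggcgcgcct
NOP10, chr15:34343130-34343159, minus strand: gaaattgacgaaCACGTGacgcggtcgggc
RRP9, chr3:51941892-51941921, minus strand: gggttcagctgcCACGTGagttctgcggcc
The E-box began 10 bases before the start of UTP20, 16 before UTP4, 15 before NAT10, 31 before DDX21, 29 before ODC1, 11 before NOP10 and 5 before RRP9. It lay farther away in IMP4 (203 bases) and SRM (199 bases), and NOP10 had another 170 bases before the start that is not shown. IMP4 and ODC1 each had a further E-box behind the start, at base 16 and base 6 with the start as base 1.

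The ratios of genes with and without the E-box overlapped, and the difference between them was not tested. The 20 genes with it had a median log2 ratio of -0.42 and spanned -0.73 to 0.18, and the 26 genes without it had a median of -0.28 and spanned -0.85 to 0.11. An unadjusted p under 0.05 was reached by 10 of the 20 and by 8 of the 26, each with a lower level in control, against 8.74% of all genes. POLR1A, NCL and GRWD1, with some of the largest differences, had no CACGTG in their windows, while UTP20 (-0.73) and GAR1 (-0.68) had it. RRP9 had it and a ratio above 0 (0.18, standard error 0.40), which was -0.19 without control repeat 3.

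**Figure D2:**
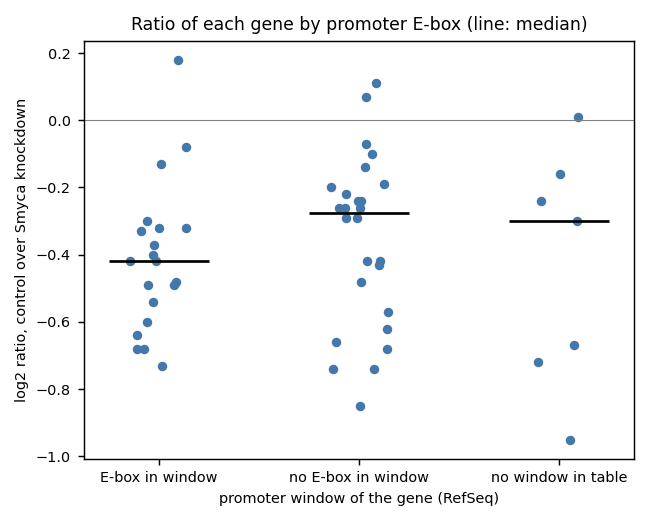
Each point is 1 of the 53 genes, placed by its log2 ratio of control over Smyca knockdown (vertical axis) and by whether its promoter window holds an E-box (horizontal axis, with random sideways spread); lines are medians. The medians are -0.42 for 20 genes with an E-box and -0.28 for 26 without (7 further genes had no window in the table), and the points of these 2 groups overlap over nearly their whole range.

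Among the Pol I genes, both catalytic subunits and the activator UBTF had higher levels in Smyca knockdown, and the subunits POLR1C and POLR1D overlapped between the groups. POLR1A (ENSG00000068654, chr2:86020216-86106155 of GRCh38, minus strand), which encodes the largest subunit, was at 85.9, 95.1 and 113 CPM in the control repeats and at 146, 187 and 198 CPM in the knockdown repeats. The groups did not overlap, with a log2 ratio of -0.85 (standard error 0.18, adjusted p = 0.111, edgeR's quasi-likelihood test) and a 1.81-fold higher level in the knockdown. POLR1B, the second largest subunit, was at 49.4, 52.9 and 56.2 CPM in control and at 77.7, 85.5 and 87.0 CPM in knockdown. Its log2 ratio of -0.66 had a standard error of 0.13 (adjusted p = 0.111, edgeR), and the groups were well apart. UBTF, which opens the rDNA for Pol I, was at 64.2, 81.1 and 128 CPM in control and at 144, 155 and 140 CPM in knockdown (log2 ratio -0.68, standard error 0.24). Its control repeat 3 was nearly as high as the lowest knockdown repeat.

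POLR1C and POLR1D, the assembly subunits of both Pol I and Pol III, were at 28.5 ± 8.64 and 84.9 ± 8.90 CPM in control and at 27.2 ± 4.65 and 78.7 ± 11.6 CPM in knockdown (SD, n = 3 each). Their repeats overlapped, and their log2 ratios of 0.07 and 0.11 were within the standard errors of 0.24 and 0.16. The sign of POLR1C changed without control repeat 3 (-0.21) and without knockdown repeat 3 (-0.08). POLR1E was lower in each control repeat than in each knockdown repeat, by a small margin (log2 ratio -0.30, standard error 0.13). The initiation factor RRN3 differed by -0.26 (standard error 0.14), with overlapping repeats, and its reads are uncertain because 3 annotated pseudogenes are named after it. Of these 7 genes, 3 had an unadjusted p under 0.05 and a lower level in control, against 8.74% of all genes.

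Outside the 53 genes, 13 further genes of the Pol I machinery had a median log2 ratio of -0.19 (-0.10 without knockdown repeat 2 and -0.12 without control repeat 1), with 1 at an unadjusted p under 0.05 and lower in control (7.69%, against 8.74% of all genes) and 2 higher (15.4%, against 10.4%), which is near the background. TAF1C, a subunit of the promoter selectivity factor, was at 243, 241 and 257 CPM in control and at 192, 207 and 109 CPM in knockdown, with a ratio in the other direction (log2 ratio 0.55, standard error 0.23, adjusted p = 0.245, edgeR) that was 0.30 without knockdown repeat 3. POLR2E, a subunit that Pol I shares with other polymerases and the gene of this list that was lower in control at an unadjusted p under 0.05, was at 267, 297 and 318 CPM in control and at 335, 440 and 423 CPM in knockdown (log2 ratio -0.44, standard error 0.16), and is named after its values had been seen. POLR2F, another subunit that Pol I shares with other polymerases, had the largest ratio of this list (1.87, standard error 0.53), but its level was only 0.19 to 1.67 CPM.

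Of the 4 H/ACA snoRNP proteins, which serve pseudouridylation, 3 had an unadjusted p under 0.05 and a lower level in control, and of the 3 box C/D proteins, which serve ribose methylation, 0 did, where 8.74% of all genes did. With so few genes these counts show little, and the difference between both classes was not tested. GAR1 was at 14.7, 17.7 and 25.2 CPM in control and at 26.9, 33.8 and 31.7 CPM in knockdown (log2 ratio -0.68, standard error 0.22). NHP2 was at 49.2, 55.0 and 49.1 CPM in control and at 66.4, 81.6 and 87.0 CPM in knockdown, with the control repeats close to each other (log2 ratio -0.62, standard error 0.15, adjusted p = 0.123, edgeR). DKC1, the pseudouridine synthase dyskerin, was at 120, 146 and 205 CPM in control and at 222, 258 and 219 CPM in knockdown (log2 ratio -0.57, standard error 0.21). In each of these genes, no control repeat reached the lowest knockdown repeat. NOP10, the smallest of the 4 proteins, was at 79.5, 87.9 and 95.6 CPM in control and at 91.1, 109 and 78.6 CPM in knockdown, and its log2 ratio of -0.08 was within its standard error of 0.16.

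Of the box C/D proteins, the methyltransferase FBL (fibrillarin) was at 282, 289 and 345 CPM in control and at 338, 411 and 397 CPM in knockdown. With all libraries it had the largest difference of the 3 (log2 ratio -0.32, standard error 0.15), and only control repeat 3 reached into the knockdown range. Without control repeat 3 it had the smallest, at -0.42, with NOP56 at -0.90 and NOP58 at -0.45. NOP56 had the widest spread between control repeats, relative to its mean, of the 53 genes, with 231, 306 and 727 CPM in control and 467, 578 and 453 CPM in knockdown. Its log2 ratio was -0.24 (standard error 0.38), -0.90 without control repeat 3 and 0.05 without control repeat 1. Its partner NOP58 was also highest in control repeat 3, at 200 CPM, with 113 and 128 CPM in the other control repeats and 152 to 173 CPM in the knockdown. Both NOP56 and NOP58 had positive ratios with the alternative reads of control repeat 2, described further below (0.18 and 0.04). In 9.5% of its exonic bases NOP56 shares sequence on the same strand with small RNAs, chiefly snoRNAs.

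Per kilobase of the gene length behind the authors' FPKM values, NPM1 and NCL had the highest levels of the 53 genes, at 1520 and 603 CPM per kilobase in control. NCL (ENSG00000115053, chr2:231453531-231483641 of GRCh38, minus strand) encodes nucleolin, an RNA-binding protein of the nucleolus, and was at 606, 776 and 1070 CPM in control and at 1150, 1440 and 1500 CPM in knockdown. The mean was 1.67-fold higher in knockdown by the fit (log2 ratio -0.74, standard error 0.22, adjusted p = 0.144, edgeR). NPM1, the chaperone nucleophosmin, was at 1260, 1250 and 1220 CPM in control and at 1410, 1610 and 1550 CPM in knockdown. The groups did not overlap, but the difference was small (log2 ratio -0.29, standard error 0.13), and 49 annotated pseudogenes are named after NPM1, so that its reads are uncertain.

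NOLC1, a scaffold for snoRNPs, was at 190, 253 and 264 CPM in control and at 306, 388 and 427 CPM in knockdown (log2 ratio -0.67, standard error 0.19). The RNA helicase DDX21 was at 490, 554 and 420 CPM in control and at 591, 649 and 809 CPM in knockdown (log2 ratio -0.49, standard error 0.18). In both genes each control repeat was below each knockdown repeat. MYBBP1A, a nucleolar protein that binds Pol I, was at 173, 226 and 388 CPM in control and at 374, 468 and 387 CPM in knockdown (log2 ratio -0.64, standard error 0.28), and its control repeat 3 was above 2 of the knockdown repeats. Its ratio was -1.05 without control repeat 3 and -0.42 without control repeat 1. LYAR and GNL3 (nucleostemin) differed by -0.42 and -0.13, with overlapping repeats.

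**Figure D3:**
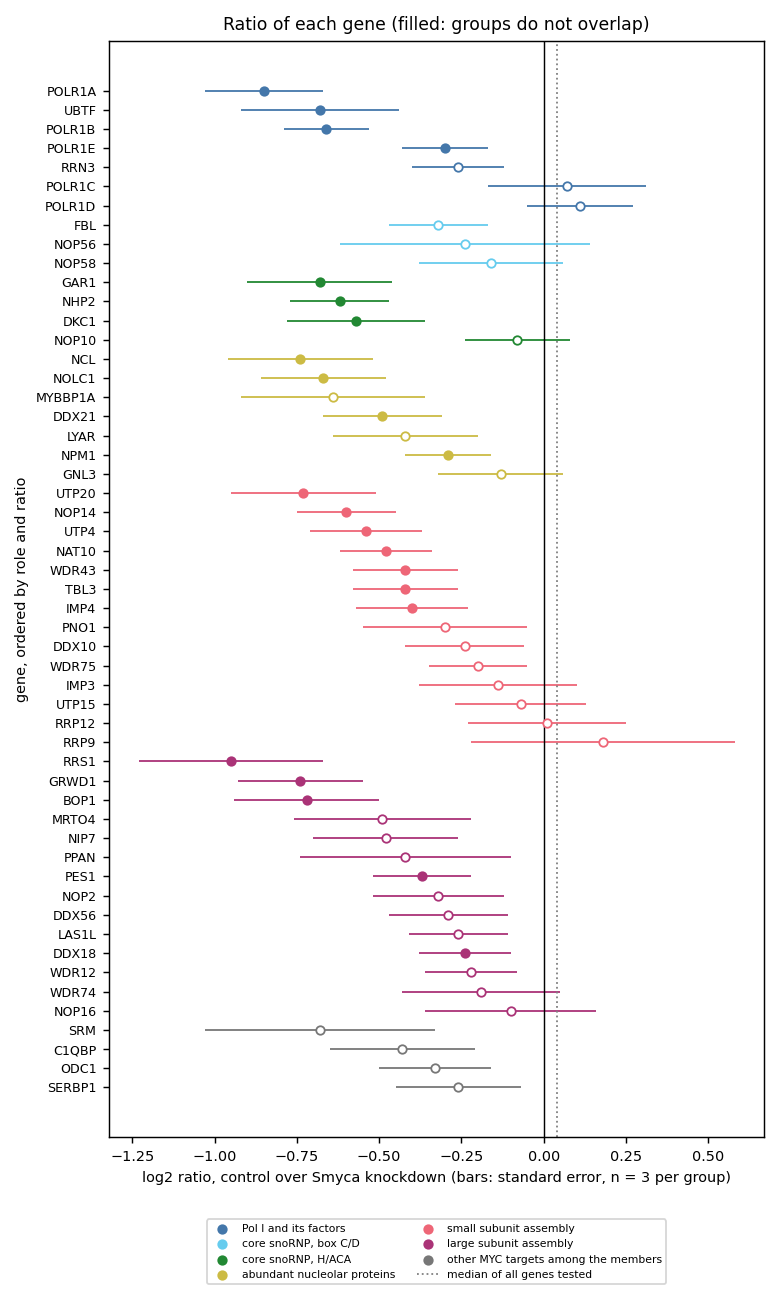
Points give the log2 ratio of control over Smyca knockdown (horizontal axis) of the 53 genes, colored by role, with bars for the standard error (n = 3 per group); filled points mark the 23 genes in which each control repeat was below each knockdown repeat. Of the 53 points, 49 lie below 0, and RRP9 has the highest value, 0.18.

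Of 14 factors of the small subunit, 7 had an unadjusted p under 0.05 and a lower level in control, 0 had one with a higher level (8.74% and 10.4% of all genes), and the median log2 ratio was -0.35 (-0.22 without control repeat 1). UTP20, a large scaffold of the small subunit processome, was at 25.8, 34.3 and 45.3 CPM in control and at 49.3, 56.8 and 68.1 CPM in knockdown (log2 ratio -0.73, standard error 0.22). NOP14 varied little in control, at 59.7, 59.1 and 56.4 CPM, and was at 77.0, 87.9 and 102 CPM in knockdown. Its log2 ratio was -0.60 (standard error 0.15, adjusted p = 0.122, edgeR), and without each library in turn it stayed between -0.71 and -0.51. The rRNA acetyltransferase NAT10 was at 209, 215 and 199 CPM in control and at 259, 302 and 307 CPM in knockdown, with a log2 ratio of -0.48 (standard error 0.14).

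UTP4, WDR43, UTP15 and WDR75 belong to the same complex of the processome, which also acts in rDNA transcription. UTP4 was at 232, 266 and 278 CPM in control and at 305, 411 and 408 CPM in knockdown (log2 ratio -0.54, standard error 0.17), and WDR43 was at 101, 103 and 125 CPM and at 129, 147 and 165 CPM (log2 ratio -0.42, standard error 0.16). In UTP15 and WDR75 the repeats overlapped, with log2 ratios of -0.07 (standard error 0.20) and -0.20 (standard error 0.15). TBL3 and IMP4 had ratios of -0.42 and -0.40 without overlap. The remaining genes of the group overlapped, namely PNO1 at -0.30, DDX10 at -0.24, IMP3 at -0.14, RRP12 at 0.01 and RRP9 at 0.18. PNO1 was at -0.65 without control repeat 3 and at -0.14 without control repeat 1, and DDX10 at -0.37 without knockdown repeat 1 and at -0.13 without control repeat 1. RRP9, which binds the U3 snoRNA, had the highest ratio of the 53 genes but also the fewest reads, at 4.63, 6.15 and 9.99 CPM in control and at 4.70, 9.25 and 4.42 CPM in knockdown. Its standard error was 0.40, and its ratio was -0.19 without control repeat 3 and -0.02 without knockdown repeat 3. IMP3 shares 58.1% of its exonic bases with genes on the other strand, TBL3 30.0%, NHP2 28.0% and NOP14 20.7%, and the strand setting of the counting is not given in the sources used here.

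All 14 factors of the large subunit had log2 ratios below 0 (46.6% of all genes), with a median of -0.35 (-0.23 without knockdown repeat 2), and 4 had an unadjusted p under 0.05 (8.74% of all genes lower in control). RRS1, an early factor that brings the 5S RNP into the particle, had the largest difference of the 53 genes. It was at 19.5, 23.0 and 39.6 CPM in control and at 46.7, 66 and 45.3 CPM in knockdown, 1.93-fold higher by the fit (log2 ratio -0.95, standard error 0.28, adjusted p = 0.143, edgeR). Without each library in turn its ratio stayed between -1.32 and -0.75. The histone and ribosomal protein chaperone GRWD1 was at 126, 140 and 173 CPM in control and at 204, 290 and 239 CPM in knockdown (log2 ratio -0.74, standard error 0.19, adjusted p = 0.125, edgeR).

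BOP1, PES1 and WDR12 form the PeBoW complex, which is needed to process the rRNA of the large subunit. BOP1 was at 281, 351 and 469 CPM in control and at 551, 730 and 529 CPM in knockdown (log2 ratio -0.72, standard error 0.22). PES1 was at 264, 281 and 280 CPM in control and at 310, 405 and 355 CPM in knockdown (log2 ratio -0.37, standard error 0.15). The repeats of both did not overlap, whereas WDR12 was at 49.2, 59.4 and 57.8 CPM in control and at 66.8, 68.0 and 58.7 CPM in knockdown, with its lowest knockdown repeat between the control repeats. WDR12 had a log2 ratio of -0.22 (standard error 0.14). DDX18 did not overlap but differed little (log2 ratio -0.24, standard error 0.14), and 5 annotated pseudogenes are named after it. The other genes of the group overlapped and ranged from -0.49 in MRTO4 and -0.48 in NIP7 to -0.10 in NOP16. Without control repeat 3 and without control repeat 1, respectively, MRTO4 was at -0.87 and -0.29 and NIP7 at -0.75 and -0.30. The reads of PPAN and NOP2 are uncertain, since 49.2% and 54.4% of their exonic bases are shared with other genes on the same strand.

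The last 4 genes are known as c-Myc targets outside ribosome assembly, and in all 4 the repeats overlapped. SRM, which encodes spermidine synthase, was at 74.5, 106 and 204 CPM in control and at 178, 268 and 169 CPM in knockdown. Its log2 ratio was -0.68 (standard error 0.35) and was -1.19 without control repeat 3, the highest of its control values, and -0.41 without control repeat 1, the lowest. ODC1, ornithine decarboxylase, the entry enzyme of polyamine synthesis, was at 296, 315 and 369 CPM in control and at 348, 479 and 405 CPM in knockdown, with a log2 ratio of -0.33 (standard error 0.17). C1QBP, a mitochondrial matrix protein, was at 252, 363 and 457 CPM and at 426, 498 and 518 CPM, and the mRNA-binding protein gene SERBP1 was at 534, 562 and 469 CPM and at 504, 589 and 778 CPM, with 6 annotated pseudogenes named after it. MYC itself was at 499 to 746 CPM in control and at 524 to 755 CPM in knockdown, with a log2 ratio of -0.05 (standard error 0.20), and MAX differed by -0.15 (standard error 0.18; -0.33 without knockdown repeat 3 and -0.06 without knockdown repeat 2).

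Further genes of the pathway, none of them among the 53, were counted in the same way. Of 36 other factors of the small subunit, 12 had an unadjusted p under 0.05 and a lower level in control and 0 a higher level, with a median log2 ratio of -0.27. PWP2 had the largest ratio of this list, -0.72 (standard error 0.40), at a level of 0.74 to 2.03 CPM, and was at -1.11 without control repeat 3. RRP7A was next, with -0.67 (standard error 0.28), and was at -0.43 without knockdown repeat 2. Of 40 other factors of the large subunit, 9 had a lower and 1 a higher level in control at an unadjusted p under 0.05, with a median of -0.22 (-0.14 without control repeat 1). SENP3, a SUMO protease of the nucleolus, was at 40.7, 49.8 and 43.6 CPM in control and at 68.6, 102 and 111 CPM in knockdown (log2 ratio -1.07, standard error 0.20, adjusted p = 0.111, edgeR). URB2 was at 21.4, 22.8 and 27.8 CPM in control and at 48.4, 55.9 and 44.4 CPM in knockdown (log2 ratio -1.05, standard error 0.17, adjusted p = 0.111, edgeR), so that the groups of both were well apart.

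The RNA exosome, which trims rRNA precursors, had 1 of 14 genes at an unadjusted p under 0.05, with a lower level in control, and a median log2 ratio of -0.17. That gene was its helicase MTREX (log2 ratio -0.66, standard error 0.22), which was at -0.46 without control repeat 3 and at -0.78 without knockdown repeat 3. EXOSC6 was at -0.48 (standard error 0.24). Without control repeat 3 and without control repeat 1, respectively, the median was -0.26 and -0.10 and EXOSC6 was at -0.76 and -0.27. Of 24 other textbook c-Myc targets, 9 had a lower level in control at an unadjusted p under 0.05 and 0 a higher level. Their median was -0.25 (-0.44 without control repeat 3 and -0.21 without knockdown repeat 2). SLC19A1, a folate carrier, was at 45.3, 56.4 and 84.4 CPM in control and at 105, 155 and 103 CPM in knockdown (log2 ratio -0.96, standard error 0.26), and the transferrin receptor gene TFRC was at 304, 367 and 295 CPM and at 457, 584 and 655 CPM (log2 ratio -0.81, standard error 0.18). In both genes the groups did not overlap. Of 10 other genes of the polyamine pathway, 2 had a lower and 1 a higher level in control at an unadjusted p under 0.05. AMD1, which supplies the aminopropyl donor for spermidine synthesis, was at 97.7, 108 and 129 CPM in control and at 161, 159 and 161 CPM in knockdown (log2 ratio -0.53, standard error 0.15). SAT1, which acetylates spermidine and spermine for breakdown and export, was at 489, 436 and 290 CPM in control and at 191, 202 and 323 CPM in knockdown (log2 ratio 0.76, standard error 0.26), and its repeats overlapped. Beside these counts stands the background of 8.74% of all genes lower and 10.4% higher in control at an unadjusted p under 0.05.

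**Figure D4:**
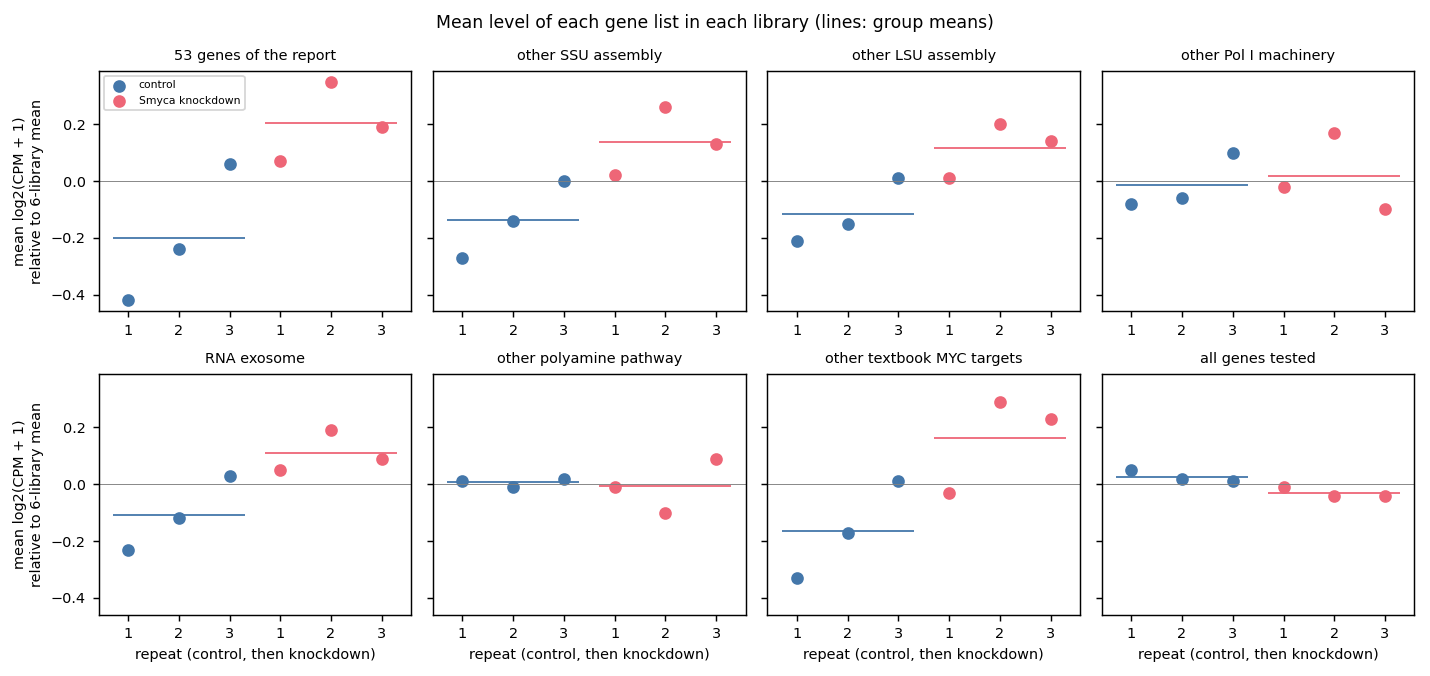
Each panel gives the mean of log2(CPM + 1) of a gene list in each library relative to the mean of the 6 libraries (vertical axis) for control repeats 1 to 3 (blue) and Smyca knockdown repeats 1 to 3 (red), with lines for the group means. The 53 genes were at -0.42, -0.24 and 0.06 in control and at 0.07, 0.35 and 0.19 in knockdown, while all genes tested stayed between -0.04 and 0.05.

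Across analysis settings, the share of the 53 genes lower in control with an unadjusted p under 0.05 stayed above that of all genes. The plot of shares by setting shows this. The share was 39.6% as reported, 35 of 53 genes without control repeat 3 and 13 of 53 without control repeat 1 or knockdown repeat 2. In the second repeat of the control, the FPKM column follows other reads than the count column. In CPM of all reads, the 53 genes summed to 9270.1 from the count column and to 10865 from the reads behind the FPKM column. With those reads in place of the counts, 17 of the 53 genes had an unadjusted p under 0.05 and a lower level in control (9.81% of all genes), and the median log2 ratio was -0.31.

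**Figure D5:**
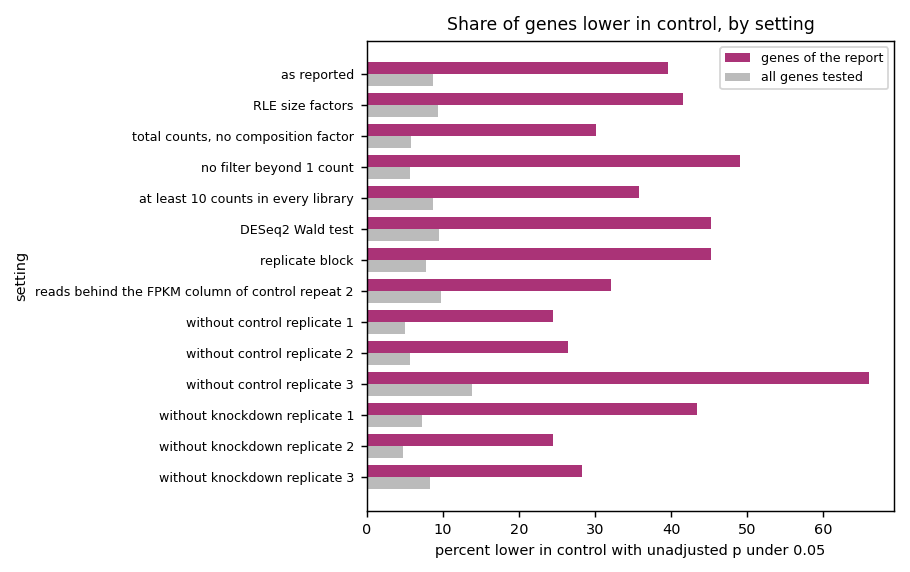
Bars give the percent of the 53 genes (purple) and of all genes tested (grey) that were lower in control with an unadjusted p under 0.05, along the horizontal axis, for the setting as reported and 13 alternatives on the vertical axis. The share of the 53 genes was lowest, with 13 genes, without control repeat 1 or knockdown repeat 2 and highest, with 35 genes, without control repeat 3.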

How the data were processed

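Per the study's methods, rRNA was removed, and strand-specific libraries were sequenced as paired ends. Mapping by the authors used TopHat2 2.0.12 and GRCh38, and counting used HTSeq, whose strand setting and annotation are not given in the sources used here. The authors deposited raw read counts per Ensembl gene, used for the tests, and FPKM values, which follow the counts in 5 of 6 libraries and gave the gene lengths. For control repeat 2, the FPKM column gave 16759253 whole reads (100% of 23593 genes within 0.02 reads), used as an alternative. Symbols were taken from GENCODE 44 (57532 of 58302 identifiers).

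Counts were tested in R 4.3.3 with edgeR 4.0.16 (TMM, filterByExpr, quasi-likelihood test, Benjamini-Hochberg over 15075 genes). The standard error is the absolute log2 ratio divided by the root of F. DESeq2 1.42.0, other scalings and filters, a replicate block and leaving out each library were alternatives. The code was tested on simulated data. The study calls the repeats biological, without saying how they were made, and the biological coefficient of variation was 25.2%. Besides the 53 genes, the text names MYC, Smyca, marker genes and the 2 genes with the largest ratio of each further list by rule, and MAX, MKI67, CDH1, HNF4A, VIL1 and POLR2E outside it. The genes and lists were chosen with earlier results of these data known.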

Additional observations from a re-analysis of the deposited data

Results flagged for a closer look

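In control repeat 2, 3357 genes had 0 in the count column and a value above 0 in the FPKM column. The comparisons use this FPKM column only in the alternative setting for control repeat 2. The reads behind this FPKM column correlated at 0.995 (log2, across 13476 genes, which are not independent replicates) with the counts of control repeat 3 and at 0.9561 with the counts of control repeat 2. Of the 53 genes, 41 were higher in the FPKM column than in the count column of the same library, with a median log2 difference of 0.27, and the median difference from control repeat 3 was -0.01.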

How the results depend on the processing

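The number of the 53 genes called as DEGs, 0 as reported, was 11 with no filter beyond 1 count (3.01% of all genes), 9 with DESeq2's Wald test (5.55% of all genes) and 0 to 17 in the leave-one-out fits (17 without control repeat 3), and the cause was not tested. With an unadjusted p under 0.05 and a lower level in control, the number was 13 to 35 in those fits, and 22 to 40 genes did not overlap (22 without control repeat 1, 14.2% of all genes, and 40 without control repeat 3, 23.5%). The median ratio of the 53 genes ranged from -0.47 to -0.27 with a library left out and stayed below 0 in each setting run. The median of the polyamine list, -0.0013 as reported, was 0.07 with total counts and -0.05 to 0.04 in the leave-one-out fits, and that of the other c-Myc targets was -0.44 to -0.21. With the replicate block, 0 genes were DEGs, 24 had an unadjusted p under 0.05 and a lower level in control (7.81% of all genes), and the median ratio was -0.40. The deviations of libraries with the same number correlated at 0.0536, 0.0938 and 0.0207, and those with different numbers at -0.142 to 0.0552. Not every library correlated best with the one of its own number. With 3 repeats per group, such values cannot show whether the repeats were paired. Of the 53 genes, 42 kept their sign in all 13 alternatives. RRP12 was at -0.01 with RLE factors and with DESeq2, at -0.03 with no filter and at -0.02 with the block. With total counts UTP15 was at 0.01 and MYC at 0.02. With control repeat 2 taken from its FPKM values, NOP56 was at 0.18, NOP58 at 0.04, NOP16 at 0.20, UTP15 at 0.07, WDR74 at 0.01 and MYC at 0.13. With each library left out, the ratio ranged from -0.90 to 0.05 for NOP56, -0.44 to 0.13 for NOP16, -0.17 to 0.17 for RRP12, -0.27 to 0.10 for UTP15, -0.19 to 0.10 for MYC, -0.19 to 0.60 for RRP9, -0.21 to 0.22 for POLR1C, -0.20 to 0.04 for NOP10, -0.45 to 0.0026 for WDR74, -0.32 to 0.06 for IMP3 and -0.0048 to 0.21 for POLR1D. The lowest count of any of the 53 genes was 67, in RRP9, where counting error is largest.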

Other observations

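Levels of partners of the same complex, and of other pairs such as NCL and NPM1, were also set against each other within each library. The log2 ratio of DKC1 to NOP10 was 0.59, 0.73 and 1.10 in the control repeats and 1.28, 1.24 and 1.48 in the knockdown repeats, without overlap. This was the only 1 of the 12 pairs examined without overlap, which shows little, since 3 against 3 repeats separate by order alone with a probability of 0.1. The log2 ratio of GAR1 to DKC1 was -3.03 ± 0.01 in control and -2.92 ± 0.13 in knockdown (SD, n = 3). NCL to NPM1 was at -0.65 ± 0.43 in control and at -0.17 ± 0.13 in knockdown, with overlapping repeats. BOP1 to PES1 was at 0.39 ± 0.33 in control and at 0.75 ± 0.15 in knockdown, also with overlap. Across the 6 libraries POLR1D correlated with the mean of the other 52 genes at -0.664, the only such value below 0, while 32 genes were above 0.8. These ratios and correlations were not tested and were chosen with earlier results known.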
